A study of Ovis aries with 4 samples.

Results

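Cadherins and protocadherins were read from single-nucleus and single-cell RNA sequencing of frozen sheep striatum, the deep forebrain region in which medium spiny neurons predominate among neurons. Members were all genes in the deposited nuclei gene list whose symbol is CDH or PCDH followed by a number, or begins with PCDHA, PCDHB, PCDHG or CDHR. The rule took 45 genes of the 26478 listed, of which 17293 carry a symbol, and it used no measured value. PCDH11X and CDH17 are not analysed here. The series held 4 libraries from 4 sheep 5 years of age, with no treatment named. Whole cells libraries 1 and 2 came from papain-digested tissue, and nuclei libraries 1 and 2 came from detergent-lysed tissue. Library 1 of each kind pooled sheep 1 and 2, and library 2 pooled sheep 3 and 4. The 2 nuclei libraries are the replicates behind every comparison between nuclei classes. The reported fits took out the overall shift between these pools, with the library as a block. A p-value between classes therefore rests only on how far class differences vary between the 2 pools, over all classes in the fit. It does not measure the spread of a single class between pools, and single animals cannot be told apart.

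Cadherins are single-pass membrane proteins whose extracellular cadherin repeats bind calcium and hold cells together. Classical cadherins, split into type I and type II, bind catenins inside the cell, and different sets of type II cadherins mark different neuron types and axon tracts. Non-clustered protocadherins of the delta groups are weak adhesion molecules known for axon growth, synapse formation and cell sorting. Clustered protocadherins are encoded by alpha, beta and gamma gene arrays, and each neuron draws its own combination of isoforms, which lets its branches recognise themselves.

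Whole cells libraries 1 and 2 held 125974 and 2512837 UMIs (unique molecular identifiers, each marking 1 captured RNA molecule) outside mitochondrial genes, and nuclei libraries 1 and 2 held 69924470 and 50705635. After filters, 16698 nuclei fell into 17 clusters built without any member gene, and classes were named from marker genes. Compared classes had 1476 and 1526 medium spiny neuron-like nuclei (libraries 1 and 2), 159 and 211 interneuron-like, 486 and 275 neuron-like without a finer name, 3835 and 3907 oligodendrocyte-like, 590 and 781 oligodendrocyte precursor-like, 712 and 655 astrocyte-like, and 814 and 887 microglia-like. Between 0 and 2 markers of each class's own list were at 0, and the 20 spiny markers, which mark striatum, summed to 10740.5 and 10015 CPM (UMIs of the genes scaled to 1000000 UMIs of the class) in the spiny class. Marker lists were not exclusive to their class. The interneuron list summed to 4019 and 2643 CPM in its own class, 2473 and 2295 CPM in astrocyte-like and 1831 and 1484 CPM in precursor-like nuclei, and the spiny list to 6179 and 4389.8 CPM in the neuron-like class. Median UMIs per nucleus ran from 1209 in the neuron-like class of library 2 to 27824 in the spiny class of library 1, so counts per class were very unequal. The doublet caller marked 390 nuclei in library 1 and 0 in library 2, where it did not work. The spiny class includes a cluster of 193 and 217 nuclei with a median of 1809.5 UMIs and none of the spiny markers among its 10 leading genes, which include MEGF11 of the precursor list. With finer clustering (resolution 1.0) a cluster of 194 and 222 nuclei with largely the same leading genes was classed as interneuron-like on CHAT, SLC5A7, LHX8 and ELAVL2, so the class of these nuclei may depend on the clustering, and interneuron-like nuclei then numbered 318 and 404. Without the cluster the spiny class kept 43998180 of its 44870578 UMIs in library 1 and 29191229 of 30102602 in library 2, but for CDH13 it held a large part of the class's UMIs, as given beside that gene. The libraries shared few barcodes, at most 87 between whole cells library 2 and nuclei library 2, and nuclei libraries 1 and 2 shared 29.

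All 45 members had at least 1 UMI in nuclei library 1 and 44 in library 2. Together they took 1.39% and 1.31% of the non-mitochondrial UMIs of the nuclei libraries. Their share was highest in the oligodendrocyte lineage, at 2.61% and 2.16% of UMIs in oligodendrocyte-like nuclei (libraries 1 and 2) and 2.66% and 2.38% in precursor-like nuclei. Astrocyte-like nuclei gave 1.54% and 1.60%, spiny nuclei 1.04% and 0.970% and microglia-like nuclei 0.332% and 0.558%. Microglia-like nuclei were the lowest of the 7 classes in both libraries. In those nuclei the 12 oligodendrocyte markers summed to 1105 and 2575 CPM, against 10477 and 11328 CPM in oligodendrocyte-like nuclei, and PCDH9 was at 2264 and 4067 CPM, so both were higher in library 2, and the part of oligodendrocyte RNA in the member share was not tested. A single gene, PCDH9, a delta-1 protocadherin, supplied 89.6% and 87.3% of the member UMIs in oligodendrocyte-like nuclei. Without PCDH9, member levels in that class were 2710.2 and 2736 CPM, against 11216 and 10068 CPM in precursor-like nuclei and 4518 and 4453 CPM in spiny nuclei. Levels are compared between classes for the same gene throughout. Levels are not compared between genes, because gene lengths and the counting of introns are not given in the sources used here.

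**Figure D1:**
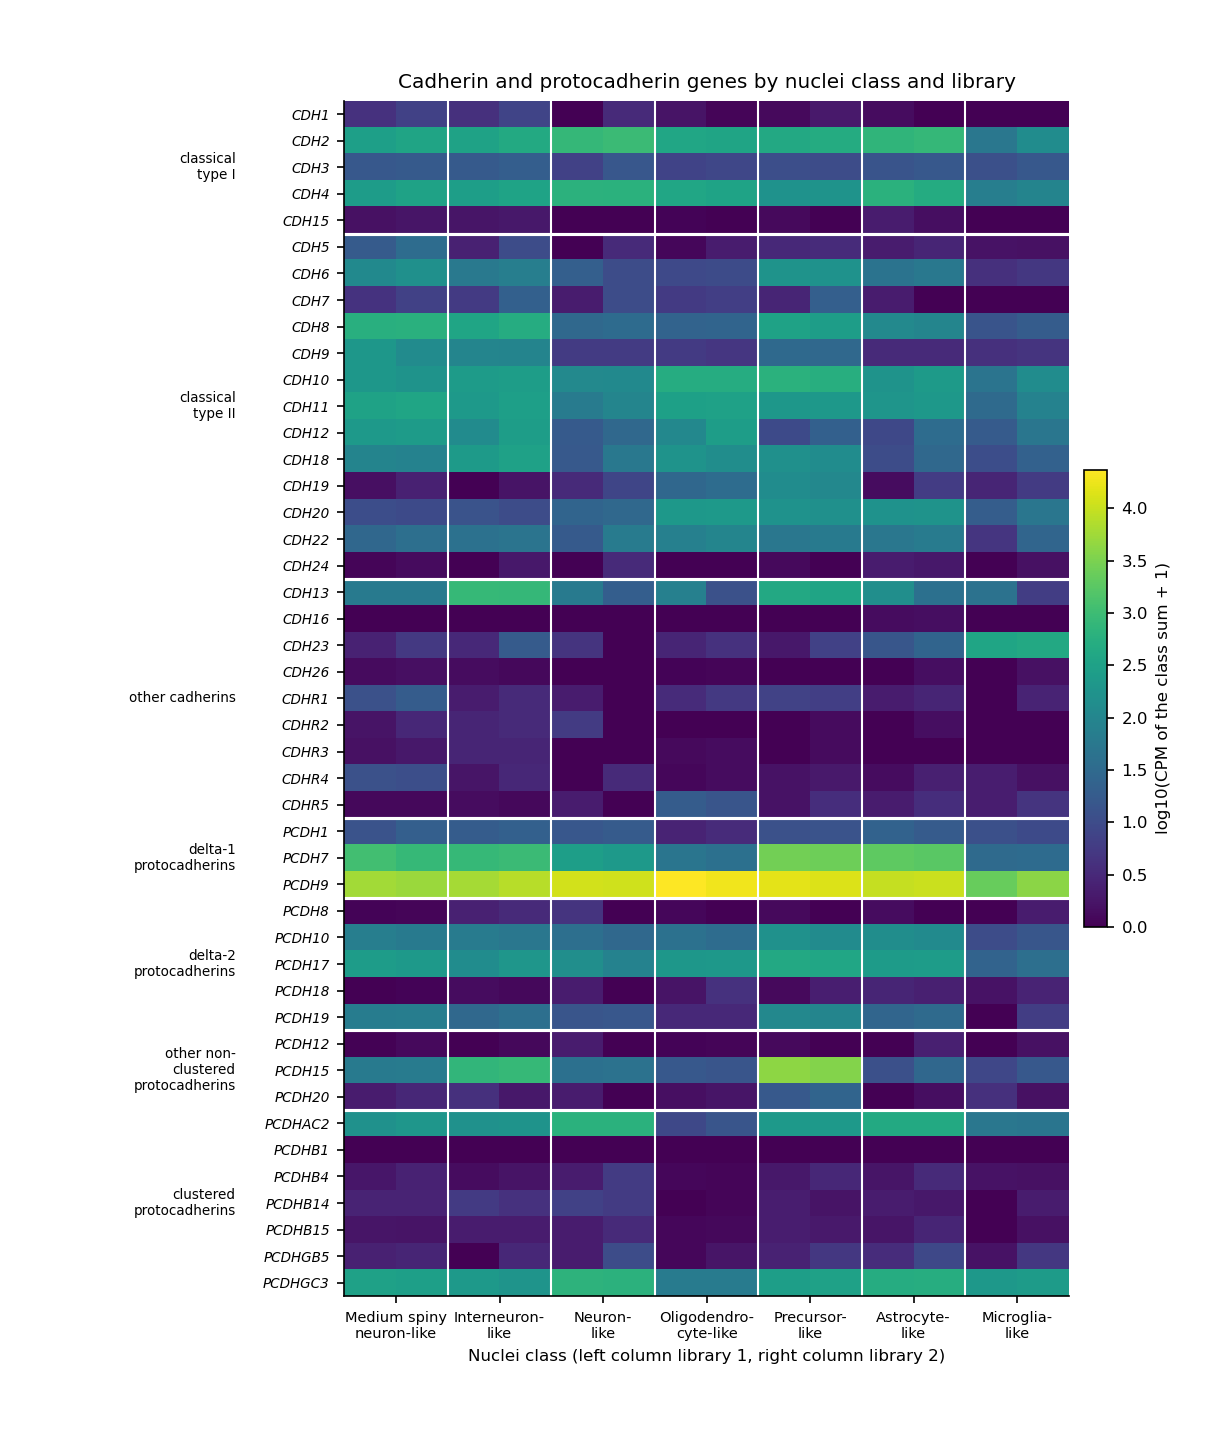
Level of each of the 45 members (rows, by family) in each of the 7 classes of nuclei (columns, libraries 1 and 2 side by side), as log10 of CPM plus a constant, by colour. PCDH9 is highest in oligodendrocyte-like nuclei and PCDH15 stands out in precursor-like nuclei. CDH23 is highest in microglia-like nuclei, where many other members have their lowest level.

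Each class was compared with the unweighted mean of the other 6 in 1 edgeR quasi-likelihood fit on summed UMIs, with the library as a block and Benjamini-Hochberg adjustment over all 13024 genes tested at 0.05. Of the 45 members, 33 passed the low-count filter. A member present in only 1 class could pass through that class alone, as CDH1, CDH5, CDHR4 and PCDHGB5 did through spiny nuclei and CDHR5 through oligodendrocyte-like nuclei, so counts over the 33 describe these genes and are no support by themselves. In spiny nuclei 20 were called higher, where 32.8% of all genes were, and 4 were called lower, where 25.8% were. In interneuron-like nuclei 17 were called higher (26.1% of all genes) and 3 lower (18.7%). Precursor-like nuclei had 18 members higher (19.6% of all genes) and 2 lower (13.1%). These 3 counts are 60.6%, 51.5% and 54.5% of the 33, above the background of each class. Microglia-like nuclei went the other way, with 1 member higher (26.9% of all genes) and 22 lower (26.2%). Oligodendrocyte-like nuclei had 11 higher (26.5%) and 17 lower (24.5%), and neuron-like nuclei without a finer name 5 higher (13.8%) and 12 lower (12.4%). Astrocyte-like nuclei lay near the background, with 9 higher (22.4%) and 4 lower (15.3%). Median log2 differences over the members were 0.90 in spiny, 0.59 in interneuron-like, 0.94 in precursor-like, -0.74 in oligodendrocyte-like and -2.12 in microglia-like nuclei, where the medians over all genes lay between -0.03 and 0.04. Scaling by library size alone shifted the median of all genes by -0.39 in spiny and 0.36 in microglia-like nuclei and changed the share of higher calls among all genes from 56.0% to 33.8% and from 50.7% to 68.6%. The same scaling changed that share from 52.7% to 66.2% in neuron-like, from 59.99% to 49.2% in precursor-like and from 59.4% to 76.0% in astrocyte-like nuclei. With it, 16 members were called higher in spiny, 18 in precursor-like, 1 in microglia-like and 13 in astrocyte-like nuclei (9 as reported).

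**Figure D2:**
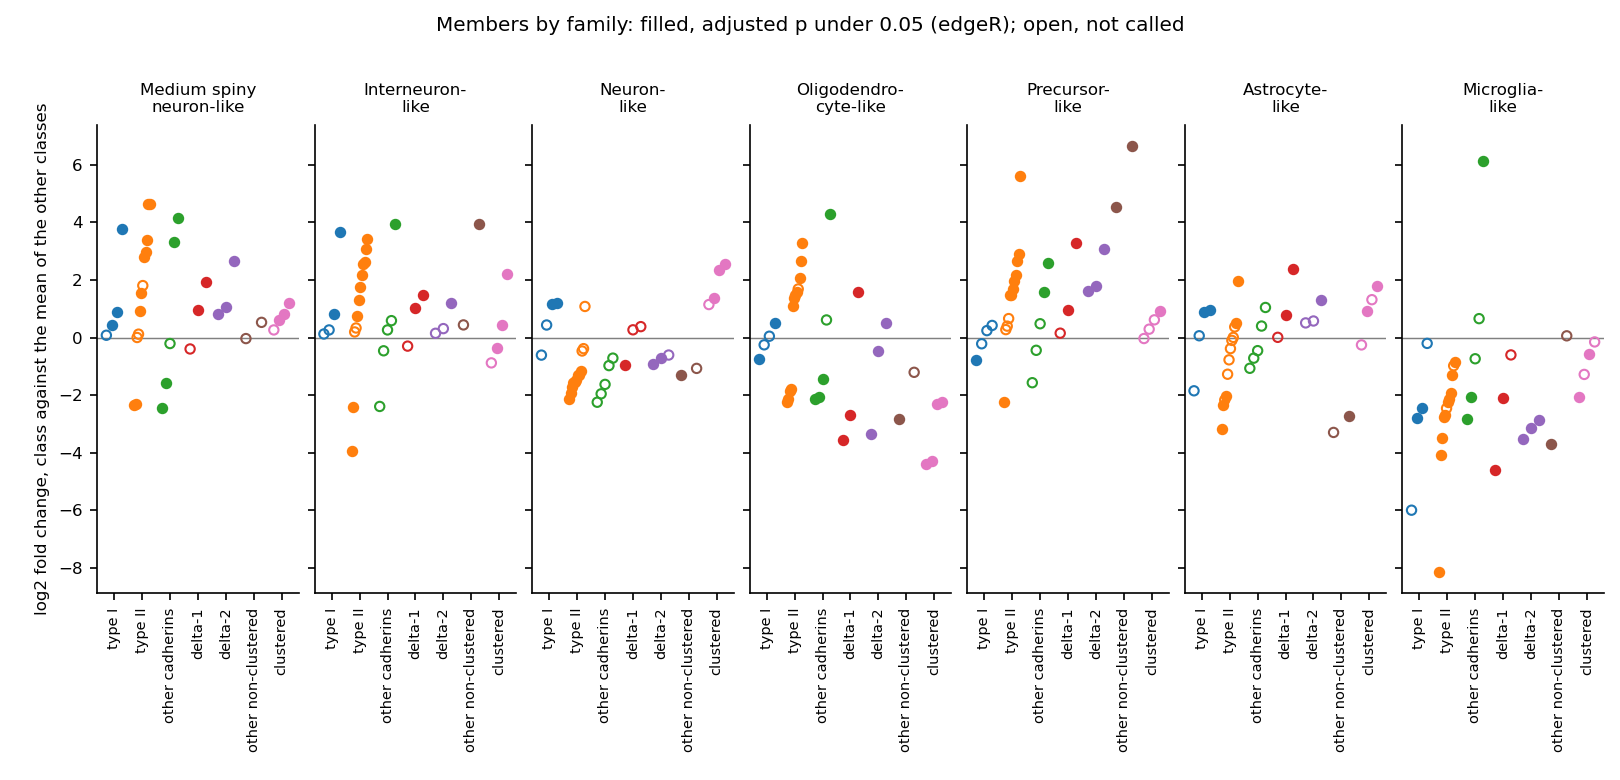
Fitted log2 difference of each tested member (points) between a class and the mean of the other 6 classes, 1 column per class, with called members filled. Spiny, interneuron-like and precursor-like points lie mostly above 0 (medians 0.90, 0.59 and 0.94), and microglia-like points mostly below (median -2.12), with CDH23 alone at 6.14.

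Type I classical cadherins have 5 members here, of which 4 were tested. CDH2 (N-cadherin, the main cadherin of neural tissue and of synaptic junctions) gave UMIs in every class. Its levels were 804 and 938 CPM in neuron-like nuclei without a finer name (libraries 1 and 2), 721 and 809 CPM in astrocyte-like, 440.3 and 493 CPM in precursor-like, 383 and 349 CPM in oligodendrocyte-like, 333 and 455 CPM in interneuron-like, 289 and 358 CPM in spiny and 53.6 and 133 CPM in microglia-like nuclei. The neuron-like and astrocyte-like values lay above all others in both libraries, and CDH2 was called higher in both classes (log2 1.19 ± 0.19 and 0.94 ± 0.19 SE, edgeR adjusted p = 0.000504 and 0.00143). It was lower in microglia-like nuclei (log2 -2.80 ± 0.26), where markers of other classes were also read, so these UMIs do not show that those cells express it. CDH4 (R-cadherin, a close relative that can pair with N-cadherin) had the same leaders, with 633 and 624 CPM in neuron-like and 606 and 483 CPM in astrocyte-like nuclei, and its precursor-like level of 166 and 174 CPM was the lowest outside microglia-like nuclei. CDH4 was called higher in neuron-like nuclei (log2 1.15 ± 0.15) and lower in precursor-like nuclei (log2 -0.77 ± 0.16), a call that was lost (log2 -0.37, edgeR adjusted p = 0.148) when the nuclei with the top 8% of doublet scores were removed. CDH3 (P-cadherin) stayed between 5.91 and 19.0 CPM in all 7 classes. CDH1 (E-cadherin, the epithelial cadherin) gave 141 and 184 UMIs in spiny and 8 and 31 in interneuron-like nuclei and 0 and 0 in microglia-like nuclei. CDH1 passed the filter through spiny nuclei alone, so these counts are a description with no test. CDH15 (M-cadherin of muscle) gave 27 and 23 UMIs in spiny nuclei and did not pass the filter.

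Type II cadherins, the largest family with 13 members and 12 tested, had 7 called higher and 2 lower in spiny nuclei and 8 higher and 2 lower in interneuron-like nuclei, but 0 higher and 8 lower in neuron-like nuclei without a finer name. They had 8 higher and 1 lower in precursor-like nuclei, 7 and 4 in oligodendrocyte-like, 2 and 3 in astrocyte-like, and 0 and 10 in microglia-like nuclei. The shares of all genes called higher and lower were 32.8% and 25.8% in spiny, 26.1% and 18.7% in interneuron-like, 13.8% and 12.4% in neuron-like, 19.6% and 13.1% in precursor-like, 26.5% and 24.5% in oligodendrocyte-like, 22.4% and 15.3% in astrocyte-like and 26.9% and 26.2% in microglia-like nuclei. Library size alone gave 6 and 2 in spiny nuclei. CDH8, a type II cadherin of corticostriatal circuits, was among the leaders. CDH8 was at 559.7 and 591 CPM in spiny nuclei (libraries 1 and 2), 362 and 510.4 CPM in interneuron-like, 322 and 272 CPM in precursor-like, 113 and 95.9 CPM in astrocyte-like, 28.4 and 33.3 CPM in neuron-like, 23.6 and 24.5 CPM in oligodendrocyte-like and 12.5 and 18.0 CPM in microglia-like nuclei. Spiny and interneuron-like values did not overlap with those of any other class in either library. The spiny difference was log2 3.37 ± 0.13 (edgeR adjusted p = 4.39e-10), and the microglia-like one -3.49 ± 0.24. CDH9, known for matching synapses between particular neuron types, had its highest levels in the spiny and interneuron-like classes. Its levels were 201 and 129.7 CPM in spiny, 95.7 and 93.1 CPM in interneuron-like and 30.8 and 29.3 CPM in precursor-like nuclei, and at most 4.76 CPM in the other 4 classes of both libraries. CDH9 rose in spiny nuclei by log2 4.63 ± 0.13 (edgeR adjusted p = 4.56e-11), and rose by 3.43 ± 0.15 in interneuron-like nuclei. CDH8 and CDH9 were called lower in the neuron-like class without a finer name (log2 -2.14 ± 0.26 and -1.92 ± 0.44), a class of few UMIs. Both of those calls were lost with members used for clustering, with at least 500 genes per nucleus, with doublets kept and with the top 8% of doublet scores removed, where CDH8 ranged from log2 -0.56 to -0.19 and CDH9 from -0.30 to -0.12.

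CDH12 and CDH18, type II cadherins of the nervous system, differed between glial classes. CDH12 was at 226 and 247 CPM in spiny and 109 and 272 CPM in oligodendrocyte-like nuclei, but at 8.47 and 21.1 CPM in precursor-like nuclei. The oligodendrocyte value of library 2 was well above that of library 1, and both were above the precursor value of either library. Its precursor-like difference was log2 -2.22 ± 0.33 and its oligodendrocyte-like difference 2.07 ± 0.21 (edgeR adjusted p = 0.000176 and 3.16e-06). CDH18 was highest in interneuron-like nuclei (239 and 316 CPM) and low in astrocyte-like nuclei (9.42 and 28.9 CPM), with differences of log2 2.54 ± 0.25 and -2.34 ± 0.38. CDH10, a relative known from cortical development, led in the oligodendrocyte lineage instead. It reached 609 and 551 CPM in precursor-like and 499.6 and 508 CPM in oligodendrocyte-like nuclei, against 208 and 172 CPM in spiny nuclei, and rose by 1.70 ± 0.21 in precursor-like nuclei. CDH11 (a cadherin of mesenchyme and of synapses) was widespread, at 329 and 376 CPM in spiny and 309 and 314 CPM in oligodendrocyte-like nuclei, and was called higher in both (log2 1.56 ± 0.17 and 1.09 ± 0.18).

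CDH19, known from Schwann cells and their precursors, was highest in the oligodendrocyte lineage. Precursor-like nuclei had 133 and 108 CPM (424 and 317 UMIs), oligodendrocyte-like nuclei 27.9 and 33.6 CPM, and no other class more than 7.14 CPM. CDH19 was called higher in both classes (log2 5.60 ± 0.29 and 3.27 ± 0.32, edgeR adjusted p = 9.93e-09 and 2.23e-06). It was also called lower in interneuron-like nuclei on 0 and 3 UMIs, a call that was lost with the top 8% of doublet scores removed. CDH20 marked all 3 macroglial classes, at 212 and 220.3 CPM in oligodendrocyte-like, 165 and 156 CPM in precursor-like and 165 and 177 CPM in astrocyte-like nuclei, against 9.98 and 8.40 CPM in spiny and 11.9 and 9.52 CPM in interneuron-like nuclei. These macroglial values lay above those of every other class in both libraries. It was called higher in these 3 classes (log2 2.67 ± 0.17, 2.16 ± 0.18 and 1.95 ± 0.19) and lower in spiny nuclei (log2 -2.35 ± 0.24). CDH22 had its highest level in oligodendrocyte-like nuclei (77.9 and 95.05 CPM, log2 1.36 ± 0.23) and its lowest in microglia-like nuclei (3.74 and 26.1 CPM). CDH6, a cadherin of developing brain boundaries, was at 119.5 and 156 CPM in spiny and 178 and 168 CPM in precursor-like nuclei but at 8.14 and 8.96 CPM in oligodendrocyte-like nuclei. CDH7 gave 12 and 94 UMIs in interneuron-like, 6 and 59 in precursor-like and 0 and 0 in microglia-like nuclei.

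CDH5 (VE-cadherin, the adhesion molecule of endothelial junctions) had most of its UMIs outside endothelial-like nuclei. Spiny nuclei gave 769 and 1042 UMIs of CDH5 (17.1 and 34.6 CPM), interneuron-like nuclei 1.49 and 9.52 CPM, and the 32 and 23 endothelial-like nuclei only 1 and 1 UMI (16.2 and 34.9 CPM). No other compared class exceeded 2.38 CPM. Because CDH5 passed the filter through spiny nuclei alone, these levels are a description and its call there is no support. The 8 markers on the endothelial list summed to 24.7 and 41.8 CPM in spiny nuclei, against 4771 and 4122 CPM in endothelial-like nuclei. In the RefSeq table of assembly ARS-UI_Ramb_v3.0, which gives gene order only here, no protein-coding gene lies between CDH8 and CDH11, and 1 between CDH11 and CDH5. CDH8 and CDH11 were called higher in spiny nuclei. CDH9, CDH10 and CDH12 also lie in a row of protein-coding genes, with 1 such gene between CDH12 and CDH18, but did not share a pattern. In spiny nuclei CDH9, CDH12 and CDH18 were called higher (log2 4.63, 2.97 and 0.92) and CDH10 was not called (0.12 ± 0.23). In precursor-like nuclei CDH9, CDH10 and CDH18 were called higher and CDH12 lower. CDH19 and CDH7, with no protein-coding gene between them, were both called higher in precursor-like nuclei.

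Among the 9 other cadherins, 5 were tested, and their leading classes differed. CDH23 (a cadherin-repeat protein of the tip links of inner ear hair cells) was the only member called higher in microglia-like nuclei. It was at 372 and 431 CPM there (598 and 742 UMIs) and at 13.6 and 24.8 CPM in astrocyte-like nuclei, and at most 17.2 CPM elsewhere. The difference was log2 6.14 ± 0.25 (edgeR adjusted p = 6.06e-10). CDH13 (T-cadherin, which is held to the membrane by a lipid anchor and lacks the catenin-binding tail) was highest in interneuron-like nuclei. Its values were 839.9 and 809.7 CPM in interneuron-like, 437 and 353 CPM in precursor-like, 141 and 39.5 CPM in astrocyte-like, 78.7 and 10.9 CPM in oligodendrocyte-like, 61.8 and 59.96 CPM in spiny, 61.5 and 19.0 CPM in neuron-like and 44.2 and 5.22 CPM in microglia-like nuclei. The low-UMI cluster counted with spiny nuclei gave 31.9% and 43.3% of the spiny CDH13 UMIs, and without it the spiny levels were 42.9 and 35.04 CPM. Library 1 exceeded library 2 in oligodendrocyte-like, astrocyte-like and microglia-like nuclei, while interneuron-like and spiny values of the libraries were close. CDH13 rose in interneuron-like and precursor-like nuclei (log2 3.94 ± 0.37 and 2.60 ± 0.38, edgeR adjusted p = 2.03e-06 and 0.000175).

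Cadherin-related genes were scarce. CDHR1, known from photoreceptors, and CDHR4 were at 10.96 and 17.9 CPM and 10.96 and 10.3 CPM in spiny nuclei, with no other class above 6.28 and 2.38 CPM. The spiny difference of CDHR1 was log2 3.33 ± 0.25. CDHR5, known from the brush border of gut and kidney, appeared in oligodendrocyte-like nuclei at 17.8 and 13.3 CPM (177 and 101 UMIs) and stayed at or below 3.48 CPM elsewhere. CDHR5 passed the filter through oligodendrocyte-like nuclei alone and CDHR4 through spiny nuclei alone, so their levels are given as a description with no test. CDHR2, CDHR3, CDH16 and CDH26 did not pass the filter, and each gave at most 61 UMIs in any class of a library.

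**Figure D3:**
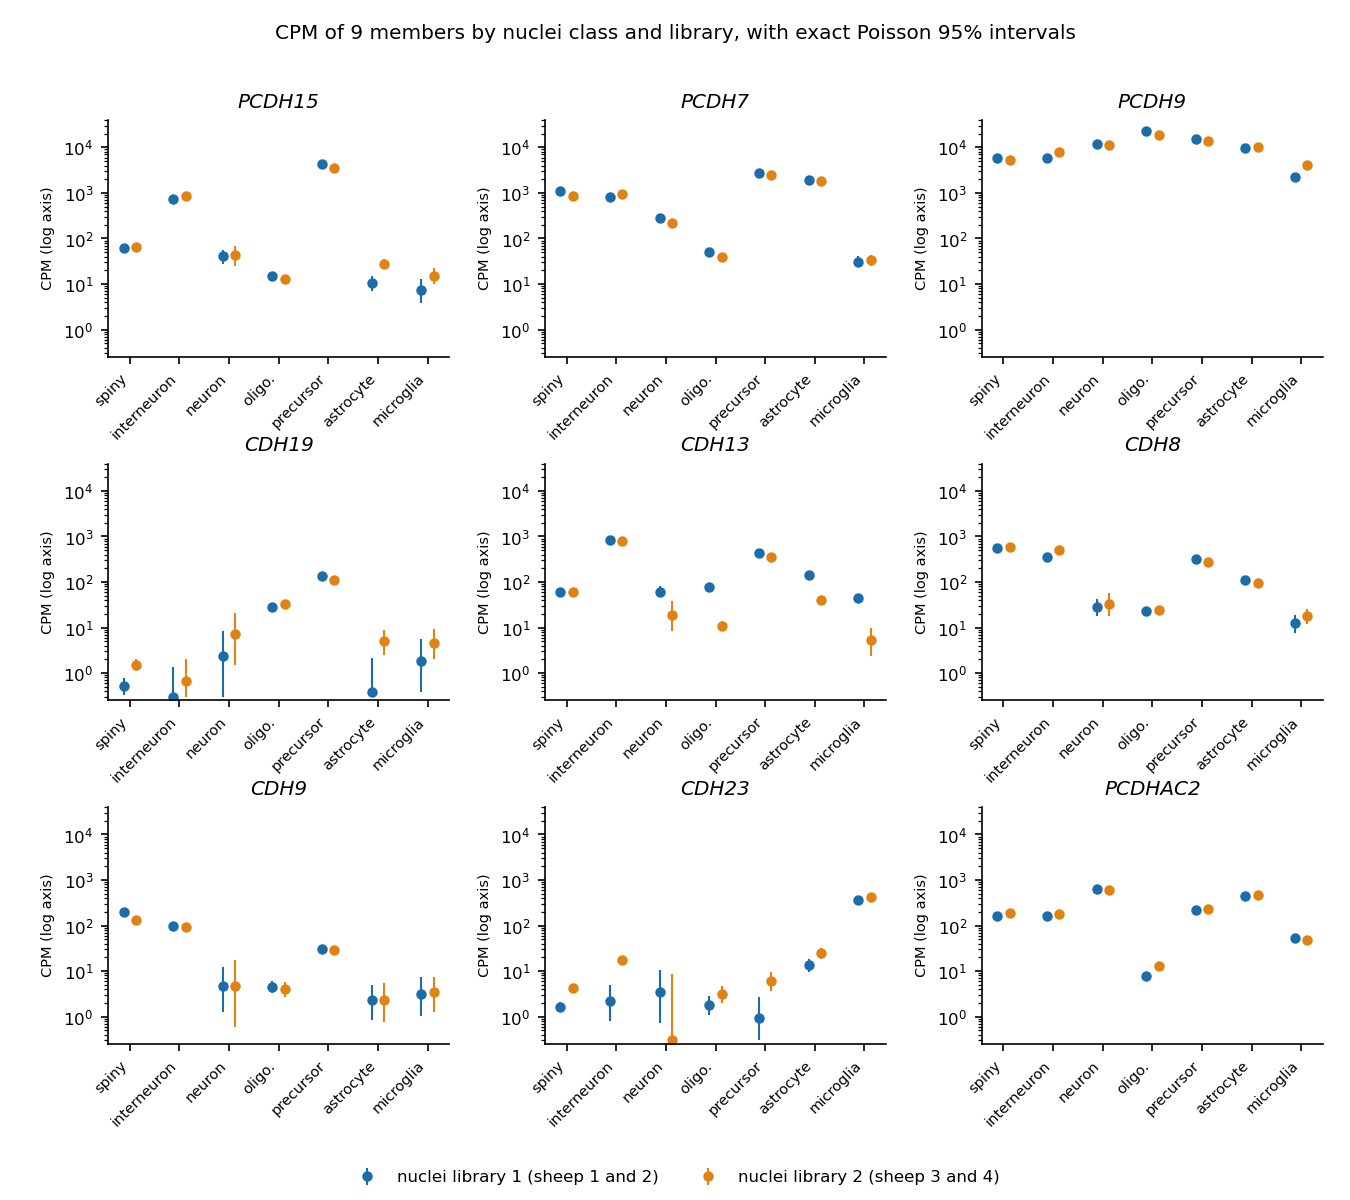
CPM (log axis) of 9 members in each class, with 1 point per nuclei library and 95% exact Poisson intervals that cover counting error only; values of 0 are drawn at 0.3. PCDH15 and PCDH7 peak in precursor-like nuclei, CDH23 in microglia-like nuclei, CDH8 and CDH9 in spiny nuclei, CDH13 in interneuron-like nuclei, and PCDHAC2 in neuron-like nuclei without a finer name.

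All 3 delta-1 protocadherins were tested. PCDH9 was at 23425 and 18875 CPM in oligodendrocyte-like nuclei (libraries 1 and 2), 15382 and 13762 CPM in precursor-like, 11855 and 11222 CPM in neuron-like, 9814 and 10409 CPM in astrocyte-like, 5939 and 8022 CPM in interneuron-like, 5847 and 5243 CPM in spiny and 2264 and 4067 CPM in microglia-like nuclei. The order from oligodendrocyte-like to precursor-like to neuron-like was the same in both libraries. It rose by 1.58 ± 0.21 in oligodendrocyte-like and 0.94 ± 0.22 in precursor-like nuclei (edgeR adjusted p = 3.25e-05 and 0.00522). PCDH7, known for binding the phosphatase PP1 alpha, was high in precursor-like and low in oligodendrocyte-like nuclei. Precursor-like nuclei had 2772 and 2495 CPM, astrocyte-like 1897 and 1799.6 CPM, spiny 1124 and 853 CPM, interneuron-like 833 and 933 CPM, neuron-like 278 and 221 CPM, oligodendrocyte-like 49.5 and 39.9 CPM and microglia-like 31.1 and 33.1 CPM. Its oligodendrocyte-like and microglia-like values were below every other class in both libraries. PCDH7 was called higher in precursor-like and astrocyte-like nuclei (log2 3.29 ± 0.13 and 2.39 ± 0.13) and lower in oligodendrocyte-like and microglia-like nuclei (log2 -3.56 ± 0.21 and -4.58 ± 0.23). PCDH1, a protocadherin known from airway epithelium, reached at most 22.6 CPM and was lowest in oligodendrocyte-like nuclei (1.71 and 2.50 CPM, log2 -2.70 ± 0.26).

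Delta-2 protocadherins, of which 3 of 5 were tested, were all called higher in precursor-like nuclei (19.6% of all genes were) and in spiny nuclei (32.8%) and lower in microglia-like nuclei (26.2%). PCDH17, known for cortico-basal ganglia synapses, was at 426 and 378 CPM in precursor-like and 257 and 234 CPM in spiny nuclei (log2 1.62 ± 0.18 and 1.07 ± 0.18). PCDH10 was at 160.4 and 128 CPM in precursor-like and 139.8 and 120.2 CPM in astrocyte-like nuclei (log2 1.80 ± 0.11 and 1.31 ± 0.12). PCDH19, whose human gene is known from an epilepsy of girls, was at 110.2 and 96.7 CPM in precursor-like and 66.4 and 69.5 CPM in spiny nuclei, but at 2.21 and 2.24 CPM in oligodendrocyte-like nuclei. Its differences were log2 3.08 ± 0.20, 2.65 ± 0.19 and -3.36 ± 0.35, in that order. PCDH8 and PCDH18 were at trace level, with at most 10 and 24 UMIs in any class of a library.

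Of the 3 other non-clustered protocadherins, PCDH15 gave the largest upward difference of any member in any class. PCDH15, a partner of CDH23 in the tip links of hair cells, was at 4284 and 3602 CPM in precursor-like nuclei (libraries 1 and 2), 745 and 849 CPM in interneuron-like, 61.5 and 65.1 CPM in spiny, 40.2 and 42.9 CPM in neuron-like, 14.8 and 13.2 CPM in oligodendrocyte-like, 10.6 and 27.5 CPM in astrocyte-like and 7.47 and 15.1 CPM in microglia-like nuclei. Both precursor-like values lay above every interneuron-like value, and both interneuron-like values above every other class. It rose by 6.64 ± 0.18 in precursor-like and 3.93 ± 0.18 in interneuron-like nuclei (edgeR adjusted p = 7.59e-11 and 4.05e-09). The lower call in astrocyte-like nuclei (log2 -2.71 ± 0.31) was lost with the top 8% of doublet scores removed (log2 -0.78, edgeR adjusted p = 0.484). CDH23 and PCDH15, partners in the ear, thus had different leading classes here. PCDH20 appeared in precursor-like nuclei as well, on 50 and 73 UMIs (15.7 and 24.9 CPM, log2 4.54 ± 0.39). PCDH12, known from endothelium, gave at most 9 UMIs in any class of a library and did not pass the filter.

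Clustered protocadherins had 7 members in the gene list and 4 tested. Their isoforms share near-identical copies and exons, so reads may be split or lost between them, and their values are uncertain. PCDHAC2 (an alpha C-type isoform, known to be used by serotonergic neurons) was at 622 and 614 CPM in neuron-like nuclei without a finer name, 454 and 458 CPM in astrocyte-like, 219 and 233 CPM in precursor-like, 163 and 193 CPM in spiny, 163 and 177 CPM in interneuron-like, 52.3 and 48.7 CPM in microglia-like and 7.74 and 13.1 CPM in oligodendrocyte-like nuclei. Classes kept this order from neuron-like to precursor-like in both libraries, and spiny and interneuron-like values were close to each other. PCDHGC3 (a gamma C-type isoform) had the same top and bottom, with 679 and 649.9 CPM in neuron-like, 509 and 525 CPM in astrocyte-like and 64.9 and 64.6 CPM in oligodendrocyte-like nuclei. In oligodendrocyte-like nuclei all 4 tested members were called lower (24.5% of all genes were), PCDHAC2 at log2 -4.27 ± 0.19 and PCDHGC3 at log2 -2.25 ± 0.14 (edgeR adjusted p = 3.67e-09 and 2.74e-08). PCDHGB5, which passed the filter through spiny nuclei alone (69 and 56 UMIs), gave 2 and 6 UMIs in oligodendrocyte-like nuclei. PCDHB14 was called lower there on 0 and 1 UMI, against 79 and 51 UMIs in spiny nuclei (log2 -4.40 ± 0.84), and that call was lost with the top 8% of doublet scores removed (log2 -3.43, edgeR adjusted p = 1.0). In neuron-like nuclei 3 were called higher (13.8% of all genes), with PCDHAC2 at log2 2.35 ± 0.12 and PCDHGC3 at 1.38 ± 0.11. Spiny nuclei had 3 called higher (32.8% of all genes) and 0 lower (25.8%), which became 1 and 0 with library size alone. PCDHB1, PCDHB4 and PCDHB15 did not pass the filter, with at most 48 UMIs in any class of a library.

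The share of nuclei with at least 1 UMI was compared after each nucleus was thinned to 1000 UMIs, with shallower nuclei left out. PCDH15 was found in 97.6% (96.0 to 98.7) and 94.2% (92.3 to 95.7) of precursor-like nuclei (libraries 1 and 2, with exact binomial 95% intervals that cover counting error only) and in 1.23% (0.897 to 1.64) and 1.15% (0.814 to 1.57) of oligodendrocyte-like nuclei. Without thinning the shares were 99.8% and 99.0% of precursor-like and 2.89% and 2.18% of oligodendrocyte-like nuclei. PCDH15 was thus found in nearly every precursor-like nucleus. PCDH7 was found in 90.7% and 86.6% of precursor-like nuclei and 2.29% and 1.75% of oligodendrocyte-like nuclei (unthinned 100.0% and 98.2% and 5.06% and 3.38%). CDH23 was found in 31.0% (27.7 to 34.4) and 34.8% (31.4 to 38.4) of microglia-like nuclei against 0.191% and 0.454% of oligodendrocyte-like nuclei (unthinned 46.2% and 50.7% and 0.469% and 0.563%). At this depth most microglia-like nuclei gave no CDH23 UMI, which does not show that they lack the RNA. CDH8 was found in 40.5% and 41.0% of spiny nuclei against 0.938% and 1.37% of microglia-like nuclei (unthinned 91.5% and 89.7% and 2.09% and 2.71%), and CDH9 in 16.5% and 12.5% of spiny nuclei against 0.402% and 0.273% of microglia-like nuclei (unthinned 83.4% and 70.2% and 0.614% and 0.564%). PCDHAC2 was found in 41.4% and 40.5% of neuron-like and 0.573% and 1.27% of oligodendrocyte-like nuclei (unthinned 55.1% and 48.7% and 1.69% and 2.07%). CDH5 was found in 1.97% and 4.22% of spiny nuclei against 0% and 0.181% of oligodendrocyte-like nuclei (unthinned 28.2% and 28.7% and 0.0522% and 0.230%). Median depths per nucleus were 4636 and 3256 UMIs in precursor-like, 2201 and 1598 in oligodendrocyte-like, 1704.5 and 1501 in microglia-like and 27824 and 16181.5 in spiny nuclei. The thinning left out 171 and 600 oligodendrocyte-like and 1 and 26 precursor-like nuclei, 68 and 155 microglia-like, 119 and 85 neuron-like and 57 and 57 spiny nuclei.

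Precursor-like nuclei were set directly against oligodendrocyte-like nuclei, the mature cells of the same lineage. Of the 33 tested members 16 were higher in precursor-like nuclei, against 23.3% of all genes, and 3 were lower, against 20.8%. The largest differences were those of PCDH15 (log2 8.13 ± 0.39), PCDH7 (5.87 ± 0.25), PCDH19 (5.52 ± 0.35) and PCDH20 (4.93 ± 0.54), with edgeR adjusted p between 4.04e-09 and 8.14e-06. All 4 tested clustered protocadherins and all 3 tested delta-2 members were higher in precursor-like nuclei, PCDHAC2 by 4.46 ± 0.21. Those lower in precursor-like nuclei were CDH12 (log2 -3.68 ± 0.36), CDHR5 (which passed the filter through oligodendrocyte-like nuclei alone) and CDH4 (-1.09 ± 0.20). PCDH9, the most counted member in both classes, was not called between them (log2 -0.55 ± 0.31).

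Spiny nuclei were also set against interneuron-like nuclei, the other inhibitory neurons of the striatum. Here 10 members were higher in spiny nuclei, against 15.3% of all genes, and 4 were lower, against 14.5%. The members higher in spiny nuclei were led by CDHR1 (log2 3.25 ± 0.40), CDHR4 (3.05 ± 0.44), CDH5 (2.46 ± 0.35) and CDH6 (1.29 ± 0.18), of which CDHR4 and CDH5 passed the filter through spiny nuclei alone. All 3 tested delta-2 protocadherins, PCDH10, PCDH17 and PCDH19, were among them. The members higher in interneuron-like nuclei were CDH13 (log2 -3.55 ± 0.60), PCDH15 (-3.40 ± 0.31), CDH18 (-1.39 ± 0.35) and CDH23 (-1.57 ± 0.46), of which CDH13 and PCDH15 had an edgeR adjusted p of 0.000734 and 5.83e-06. Without the low-UMI cluster the log2 fold change of CDH13, medium spiny neuron-like over interneuron-like nuclei, was -4.23 (edgeR adjusted p = 0.000192). Library size alone shifted the median of all genes by -0.24 in this contrast and changed the share of higher calls among all genes from 51.3% to 31.2%, with 11 members called in all against 14.

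Within the spiny class, the cluster marked by TAC1 and SLC35D3 and the D2-like cluster, whose markers are those of neurons of the direct and indirect output pathways, differed by no called member. Of 33 members tested 0 were called by edgeR, where 0.246% and 0.215% of all 13033 genes were called higher and lower. At an unadjusted p under 0.05 there were 5, CDH7, CDH12, CDH18, PCDH7 and PCDH9. DESeq2 called 0, and edgeR without the low-count filter called 4, CDH7, CDH12, CDH18 and PCDH15. CDH12 was at 321 and 316 CPM in the TAC1 and SLC35D3 cluster (libraries 1 and 2) and 153 and 170.3 CPM in the D2-like cluster, and PCDH9 at 7263 and 6057 against 4319 and 3857 CPM. These values did not overlap between the clusters for either gene. The fitted differences of 29 of the 33 were under 1 on the log2 scale, with a median SE of 0.27, so smaller differences than this fit can resolve remain possible.

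The eccentric spiny-like cluster, named from markers such as OTOF and TSHZ1, did differ from the mean of those clusters: 4 members were higher, against 7.2% of all genes, and 8 were lower, against 8.59%. PCDH15 was at 890.4 and 546 CPM in the eccentric cluster, 6.65 and 40.4 CPM in the TAC1 and SLC35D3 cluster and 10.7 and 8.13 CPM in the D2-like cluster. The eccentric values lay far above all others in both libraries. The difference was log2 5.60 ± 0.46 (edgeR adjusted p = 9.23e-09). CDH18 followed with 653 and 784 CPM, against 74.5 and 50.2 CPM in the TAC1 and SLC35D3 cluster and 35.002 and 23.5 CPM in the D2-like cluster (log2 3.95 ± 0.31, edgeR adjusted p = 4.99e-09). PCDH7 and PCDH10 were the others higher (log2 0.97 ± 0.23 and 0.75 ± 0.15). PCDH19 fell to 3.81 and 10.1 CPM, from 76.7 and 83.6 CPM in the TAC1 and SLC35D3 cluster and 65.1 and 61.0 CPM in the D2-like cluster (log2 -3.56 ± 0.33), and CDHR1, CDH6 and CDH12 were lower as well (log2 -3.10, -2.47 and -1.76). CDH4, CDH5, CDH8 and CDHR4 were lower too. The low-UMI cluster counted here with spiny nuclei, whose class may depend on the clustering, had 1012 and 858 CPM of CDH13, against 36.4 and 36.0 CPM in the TAC1 and SLC35D3 cluster and 46.1 and 28.1 CPM in the D2-like cluster.

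**Figure D4:**
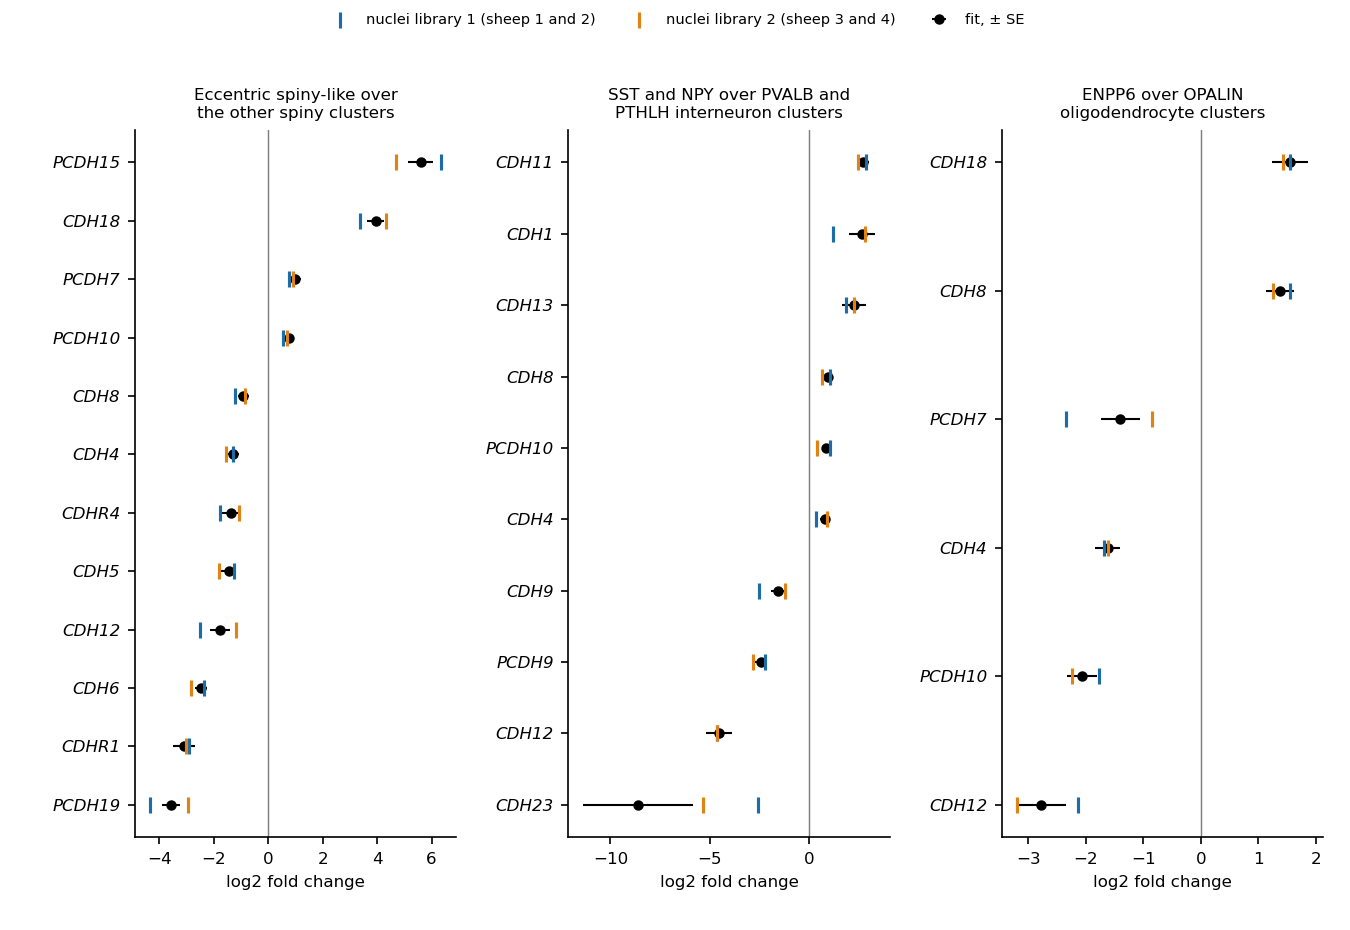
Fitted log2 differences (± SE) of the called members between clusters of the same class (edgeR), with a tick for each nuclei library. The SST and NPY cluster had 0 UMIs of CDH23, so that fitted value is no size. PCDH15 and CDH18 lead in the eccentric cluster (5.60 and 3.95). The TAC1 and SLC35D3 cluster against the D2-like cluster, with no called member, is not drawn.

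Interneuron-like nuclei split into an SST and NPY cluster of 57 and 59 nuclei and a PVALB and PTHLH cluster of 102 and 152. Between them 6 members were higher in the SST and NPY cluster, against 5.23% of all genes, and 4 were lower, against 7.83%. CDH13 was at 2146 and 2708 CPM in the SST and NPY cluster and 554 and 513 CPM in the PVALB and PTHLH cluster (log2 2.23 ± 0.61, edgeR adjusted p = 0.0171). CDH11 was at 779 and 1049.5 against 101 and 173 CPM (log2 2.71 ± 0.28). CDH1, CDH4, CDH8 and PCDH10 were also higher, with CDH1 on 3 and 18 UMIs. The opposite held for CDH12, at 6.21 and 13.4 against 157 and 306 CPM (log2 -4.55 ± 0.66), for PCDH9, at 1611 and 1453 against 6888 and 9051 CPM (log2 -2.42 ± 0.30), and for CDH9 (log2 -1.57 ± 0.34). CDH23 was called lower on 0 and 0 UMIs, against 6 and 76 UMIs in the PVALB and PTHLH cluster. PCDH15 was high in both clusters, at 1087 and 1210.2 CPM in the SST and NPY cluster and 669.9 and 792 CPM in the other, and was not called between them (log2 0.63 ± 0.50). The median depth was 2386.5 UMIs per nucleus in the SST and NPY cluster and 18036.5 in the other, and its part in these differences was not tested. With DESeq2 the share of higher calls among all genes was 51.4% instead of 40.0%, and 12 members were called.

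Among oligodendrocyte-like nuclei, the cluster marked by ENPP6, a gene of newly formed oligodendrocytes, was set against the clusters marked by OPALIN, a gene of mature myelinating cells. The larger OPALIN cluster held 3048 and 1299 nuclei of libraries 1 and 2, and the smaller 374 and 2079, so each came mostly from 1 library. Here 2 members were higher, against 4.63% of all genes, and 4 were lower, against 2.92%. CDH18 was at 401 and 284 CPM in the ENPP6 cluster and at 131 and 112 CPM in the larger and 148 and 92.3 CPM in the smaller OPALIN cluster (log2 1.55 ± 0.32, edgeR adjusted p = 0.00262). CDH8 was higher as well (log2 1.38 ± 0.24). CDH12 ran against them, at 23.4 and 36.3 CPM in the ENPP6 cluster and 127 and 327 CPM in the larger and 88.0 and 326 CPM in the smaller OPALIN cluster (log2 -2.77 ± 0.43, edgeR adjusted p = 0.000152). The ENPP6 values of CDH12 were below both OPALIN values in each library. PCDH10, CDH4 and PCDH7 were lower (log2 -2.07 ± 0.26, -1.62 ± 0.22 and -1.40 ± 0.34). PCDH15 was not called (log2 -0.07 ± 0.70), with levels of 7.57 and 19.6 CPM.

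Genes that work with the members were read from 5 lists, whose counts stand beside shares of all genes called higher and lower of 32.8% and 25.8% in spiny, 26.1% and 18.7% in interneuron-like, 26.5% and 24.5% in oligodendrocyte-like and 26.9% and 26.2% in microglia-like nuclei. In precursor-like, astrocyte-like and neuron-like nuclei those shares were 19.6% and 13.1%, 22.4% and 15.3%, and 13.8% and 12.4%. Catenins and plakophilins, which tie cadherins to the cell skeleton, had 9 of 11 genes tested, with 4 higher and 2 lower in spiny, 4 higher and 4 lower in interneuron-like, 5 higher and 2 lower in neuron-like, 5 higher and 1 lower in precursor-like, 4 higher and 3 lower in astrocyte-like and 1 higher and 5 lower in microglia-like nuclei. In oligodendrocyte-like nuclei they counted 4 higher and 2 lower, and the neural catenins CTNND2 (log2 -4.38 ± 0.25) and CTNNA2 (log2 -3.93 ± 0.20) were the lowest. CTNND2 and CTNNA2 encode delta-catenin and alpha-N-catenin, the partners of classical cadherins at synapses. Other cadherin superfamily genes (calsyntenins, FAT, CELSR, DSG, DSC and related genes) had 17 tested, with 12 higher and 3 lower in spiny, 12 higher and 0 lower in interneuron-like, 6 higher and 3 lower in neuron-like, 4 higher and 2 lower in astrocyte-like, 9 higher and 0 lower in precursor-like, 2 higher and 12 lower in oligodendrocyte-like and 1 higher and 9 lower in microglia-like nuclei. The calsyntenin CLSTN2 (log2 5.79 ± 0.16) led in interneuron-like nuclei, and CELSR1 (log2 4.93 ± 0.32), a planar polarity cadherin, in astrocyte-like nuclei. Cytoplasmic partners of protocadherins had 13 tested, with 7 higher and 2 lower in spiny, 7 higher and 3 lower in interneuron-like, 1 higher and 5 lower in neuron-like, 7 higher and 6 lower in oligodendrocyte-like, 3 higher and 2 lower in precursor-like, 4 higher and 3 lower in astrocyte-like and 5 higher and 7 lower in microglia-like nuclei. The enzymes that shed and cleave cadherins had 6 of 8 tested, with 5 higher and 0 lower in oligodendrocyte-like, 4 higher and 1 lower in microglia-like, 1 higher and 4 lower in spiny, 2 higher and 2 lower in interneuron-like, 0 higher and 1 lower in neuron-like, 0 higher and 0 lower in precursor-like and 1 higher and 1 lower in astrocyte-like nuclei. Genes for the architecture and silencing of the clustered protocadherin locus (cohesin subunits, methyltransferases and others) had 14 tested, with 9 higher and 1 lower in oligodendrocyte-like, 7 higher and 0 lower in microglia-like, 4 higher and 1 lower in neuron-like, 1 higher and 3 lower in precursor-like, 0 higher and 2 lower in astrocyte-like, 1 higher and 8 lower in spiny and 1 higher and 10 lower in interneuron-like nuclei.

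The series was designed to compare nuclei with whole cells, and the members were compared over all deposited barcodes of each library. Members had 211 and 2687 UMIs in whole cells libraries 1 and 2 and 972187 and 664822 in the nuclei libraries. These were 0.167% and 0.107% of the non-mitochondrial UMIs of whole cells, against 1.39% and 1.31% of those of nuclei. In whole cells only 125974 of 1115058 and 2512837 of 19241918 UMIs lay outside mitochondrial genes, against 69924470 of 70473292 and 50705635 of 51102420 in nuclei. Median UMIs per barcode were 348 and 504 in whole cells and 2612 and 2042 in nuclei. Of 2162 and 32500 whole-cell barcodes, 68 and 269 had at least 200 genes. The part of this in the member differences was not tested. Only 22 and 41 members were detected in whole cells. In edgeR, 24 of 39 members tested were higher in nuclei, against 29.8% of all 15781 genes, and 2 were lower, against 22.4%. The median log2 difference was 1.86 over the members and 0.61 over all genes. The 5 members with most UMIs in whole cells were PCDH9, PCDHGC3, PCDHAC2, PCDH17 and PCDH7. PCDH9 was at 1127 and 360.2 CPM in whole cells and 9330.3 and 8484 CPM in nuclei, with CPM taken here over non-mitochondrial UMIs (libraries 1 and 2). Its groups did not overlap, and the difference was log2 3.82 ± 0.57 (edgeR adjusted p = 1.25e-06). PCDH7 was at 63.5 and 57.3 CPM in whole cells and 1024 and 843 CPM in nuclei (log2 3.97 ± 0.57), and PCDH17 at 47.6 and 66.5 CPM in whole cells and 246 and 228 CPM in nuclei (log2 1.91 ± 0.50). The PCDH17 call was lost without nuclei library 1 (log2 1.58, edgeR adjusted p = 0.0652). PCDHGC3 was at 63.5 and 129.7 CPM in whole cells and 282 and 263 CPM in nuclei (log2 1.31 ± 0.51), and PCDHAC2 at 55.6 and 67.3 CPM in whole cells and 159 and 178 CPM in nuclei (log2 1.35 ± 0.47). With the animal pool as a block, the calls of PCDHGC3 (log2 1.55, edgeR adjusted p = 0.107) and PCDHAC2 (log2 1.48, edgeR adjusted p = 0.111) were lost. Both were also lost without nuclei library 1 (log2 1.00 and 1.15, edgeR adjusted p = 0.246 and 0.194) and without nuclei library 2 (log2 1.30 and 1.19, edgeR adjusted p = 0.125 and 0.181). Without whole cells library 2 the differences of PCDHGC3, PCDHAC2 and PCDH17 were larger (log2 2.50, 1.99 and 2.71), and without whole cells library 1 that of PCDH9 was (log2 4.54), each with the remaining whole cells library assumed to vary like the nuclei.

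By family, 11 of 12 tested type II cadherins were higher in nuclei, led by CDH18 (log2 4.21 ± 0.59) and CDH12 (4.15 ± 0.57). Of 6 tested clustered protocadherins 2 were higher and 1 lower. The shares of all genes called higher and lower were 29.8% and 22.4%. CDH1 had 0 UMIs in both whole cells libraries and was at least 2.81-fold higher in nuclei, with 3 counts over the group in their place. The members lower in nuclei were CDH15 (log2 -3.17 ± 0.82, on 1 and 10 UMIs in whole cells) and PCDHGB5 (-2.03 ± 0.72, on 1 and 16 UMIs). Scaling by library size alone, which counts mitochondrial UMIs, shifted the median of all genes by 3.06 and raised the share of higher calls among all genes from 57.0% to 96.2%. With it 35 members were called higher and none lower, so the lower calls of CDH15 and PCDHGB5 were lost. Cell Ranger was version 6.0.1 for whole cells and 7.0.0 for nuclei per the file headers, so the effect of the program's version and that of using nuclei cannot be told apart. Fewer cells of a type and less RNA per cell cannot be told apart in these summed libraries either.

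**Figure D5:**
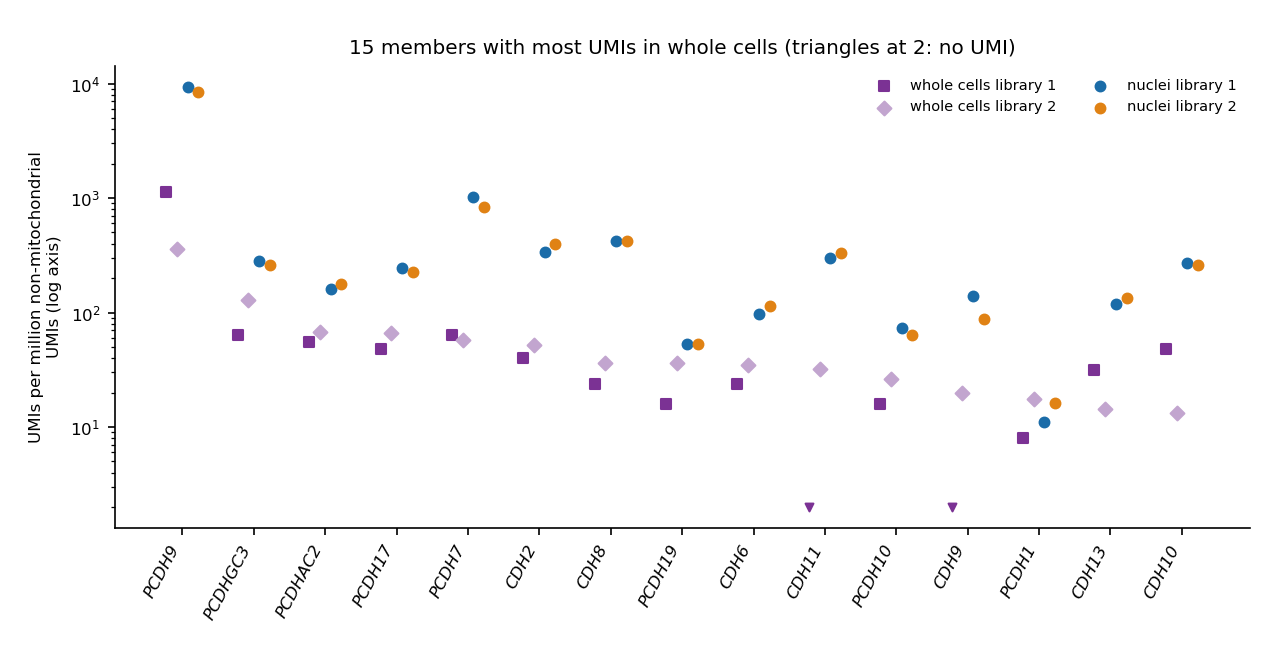
CPM of non-mitochondrial UMIs (log axis) of the 15 members with most UMIs in whole cells, with 1 point per library for whole cells and nuclei; triangles at 2 mark libraries with no UMI. PCDH9 goes from 1127 and 360.2 CPM in whole cells to 9330.3 and 8484 CPM in nuclei, and for most of the 15 the nuclei points lie above the whole cells points.

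Ranked by class, 43 members had at least 20 UMIs over the named classes. Of these, 31 had the same highest class in both libraries, where 60.4% of all genes with as many UMIs did: precursor-like for 9, spiny for 6, neuron-like without a finer name for 6, interneuron-like for 5, oligodendrocyte-like for 4 and microglia-like for 1. For 19 of them the 95% Poisson intervals of the highest and the next class did not overlap in either library, which held for 21.9% of all genes with at least 20 UMIs. These intervals cover counting error only. The minimum of 20 UMIs was over all classes, so some leading classes rest on few UMIs. PCDHB4, for example, led in neuron-like nuclei at 1.18 and 4.76 CPM, where 3 UMIs make 3.55 and 7.14 CPM. None of the 43 had astrocyte-like nuclei as its highest class in both libraries, although PCDH7, CDH20, CDH2 and CDH4 were called higher there. The 12 members that did not pass the filter (CDHR2, CDHR3, CDH15, CDH16, CDH24, CDH26, PCDH8, PCDH12, PCDH18, PCDHB1, PCDHB4 and PCDHB15) were not tested between classes in the reported fit.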

How the data were processed

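Single-cell (whole cells) and single-nucleus libraries of frozen sheep striatum were analysed from the deposited raw UMI counts, which per the file headers came from Cell Ranger 6.0.1 (whole cells) and 7.0.0 (nuclei). The submitters' processing notes also name Cell Ranger 2.1.1 and STAR 2.7.2a, and the genome build and the counting of introns are not given in the sources used here. Groups and animal pools follow the sample titles. Titles pair libraries by animals, although the protocol text names other animals for the second suspension. The correlation of same-pool deviations between nuclei and whole cells was -0.0477 over 1791 genes.

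Nuclei were kept with 200 or more genes and mitochondrial counts of 5% or less, doublets called in library 1 were removed (a caller at an expected rate of 0.08), and nuclei were clustered in scanpy 1.11.5 (leidenalg 0.10.2, 2000 genes, members left out, 30 components, 15 neighbours, resolution 0.5). UMIs were summed per library and class and tested in edgeR 4.0.16 (R 4.3.3, quasi-likelihood, TMM, filterByExpr, library as block, Benjamini-Hochberg at 0.05), for classes with at least 50 nuclei per library. Nuclei and whole cells were compared over all barcodes without a block. Spiny, interneuron and oligodendrocyte cluster pairs, the neuron-like class and the fit without the low-UMI spiny cluster were chosen after seeing the data. Endothelial-like, lymphocyte-like and unnamed nuclei were not in the fit. No whole-cell barcode passed the filter for usable cells, so whole cells were not clustered. One leading gene of an interneuron-like cluster is not reported here.

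On data simulated for the precursor-like contrast (11502 genes, 200 changed), 72% of log2 changes of 1 and 96% of 2 were recovered with 0.09% false calls, and for nuclei over whole cells (15573 genes) 6% and 64.6% with 0.01%. Changed genes had a mean of at least 20 counts, and all genes shared the same dispersion (0.022 and 0.094). Other genes had equal levels in all groups. These rates do not cover members with fewer counts or the wider differences between real classes. Alternatives were DESeq2 1.42.0, other scalings, no filter, a 2-fold threshold test, other clustering and doublet settings and left-out libraries. Members described by name were, per contrast, called members with the same direction in both libraries and at least 20 UMIs, the 4 with the largest and 2 with the smallest log2 difference, a list of brain cadherins whatever their values, and the 5 with most UMIs in whole cells. CDH3, CDH6, CDH7, CDH22, CDHR members and trace members are named to account for every gene. Members and lists were chosen with earlier results of these data known. Gene order and symbols (38 of 45 matched) come from the RefSeq table of ARS-UI_Ramb_v3.0.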

Additional observations from a re-analysis of the deposited data

Results flagged for a closer look

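Data outside the compared classes held a signal of PCDH18, a delta-2 protocadherin at trace level in the 7 compared classes. In the endothelial-like nuclei, which were too few to enter the fit, PCDH18 was at 97.0 CPM in library 1 and 139.7 CPM in library 2. These values rest on 6 and 4 UMIs in 32 and 23 nuclei, and no compared class exceeded 3.16 CPM. No test was made of this difference.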

How the results depend on the processing

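Of 151 alternative values of the counts of called members, 140 stayed within 1.5 times the reported count. For single classes these are counts of members called higher, and counts called lower are not among the 151. Of 950 values of the named members, 924 kept their direction and, where tested, their call. Class values with a nuclei library left out have no test and were judged by direction alone. Most of those members had been picked for the same direction in both libraries. The alternatives that moved a count were the test against a 2-fold change, which left 11 members higher in spiny (20 as reported), 10 in interneuron-like (17), 2 in neuron-like (5), 7 in oligodendrocyte-like (11) and 4 in astrocyte-like nuclei (9), 5 between spiny and interneuron-like nuclei (14), 5 in the eccentric cluster (12), 3 between the interneuron clusters (10) and 2 between the oligodendrocyte clusters (6). Keeping doublets gave 2 members higher in microglia-like nuclei, and no low-count filter gave 4 between the TAC1 and SLC35D3 cluster and the D2-like cluster. The cause was not tested. Nuclei over whole cells had 26 called as reported, 20 with the animal pool as a block (replicate block), 35 with library size alone, 23 with DESeq2 and between 19 and 27 with 1 library left out. Class contrasts without the replicate block gave 20 members higher in spiny, 17 in interneuron-like, 5 in neuron-like, 10 in oligodendrocyte-like, 18 in precursor-like, 8 in astrocyte-like and 1 in microglia-like nuclei, 18 called between precursor-like and oligodendrocyte-like and 10 between spiny and interneuron-like nuclei, and 9, 7 and 6 for the eccentric, interneuron and oligodendrocyte clusters. Leaving out a nuclei library leaves class contrasts with no residual degrees of freedom, so no count is given. Members under the filter and the neuron-like class rest on few UMIs.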
